A study of Mus musculus with 12 samples.

Results

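Proximal tubule (PT) cells lacking the type II TGF-β receptor were compared with their floxed counterparts in the absence of injury, across all genes. The comparison took the 3 untreated libraries labelled H2ts6;Tgfbr2-/- (titles PTcrex2) and the 3 untreated libraries labelled H2ts6;Tgfbr2fl/fl (titles PTcre-), which are 6 of the 12 libraries of the series. They are called TβRII-/- PT cells and TβRIIflox/flox PT cells here. Both are conditionally immortalized mouse cells, with H2ts6, a T antigen that is stable only at the lower growth temperature, and with Tgfbr2 alleles that are floxed or were so before deletion. The receptor was deleted in culture with an adenovirus carrying Cre, so the groups differ in Cre exposure as well as in genotype. Cells of both groups were expanded at 33 °C with interferon-γ in medium with 2.5% serum, were kept at 37 °C for 5 days before the experiment, and then stayed in normal culture medium. Interferon-γ was withdrawn on the move to the higher temperature, which lets the cells differentiate. The remaining 6 libraries are the same cells after H2O2 in serum-free medium for 24 h. They took part in the choice of transcripts, the filter and the model as further groups, but not in the contrast. Each genotype appears in the labels as 1 kind of cell with no clone named, and nothing in the labels says that the 3 libraries of a group came from separate isolations. P values therefore rest on library-to-library spread, which may be technical, and loss of the receptor cannot be told apart from any other difference between the lines. In bulk RNA, fewer cells expressing a gene and less RNA per cell cannot be told apart either.

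TGF-β ligands bind the type II receptor, TβRII, which then phosphorylates the type I receptor, and the active pair phosphorylates Smad2 and Smad3. With Smad4 these enter the nucleus and raise the transcription of genes for extracellular matrix, matrix crosslinking and protease inhibitors. In tubular epithelium the pathway is also known for lowering E-cadherin and other junction genes through repressors of the Zeb and Snail families, which bind the E-box CAGGTG. Proximal tubule cells in the kidney are highly polarized, carry a brush border, and reabsorb most of the filtered solutes.

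The gene counts of the 6 libraries summed to between 16136084 and 17645436, and between 14746 and 15393 genes had at least 1 count. Replicates of a group resembled each other, with a chi-square per gene between 3.867 and 12.33, against 106.9 to 145.3 between groups. The first principal component of the 6 libraries held 91.08% of the variance and separated the genotypes. Tgfbr2 itself was still counted after deletion. Its normalized counts were 9248, 8369 and 7562 in the floxed libraries and 6782, 6675 and 6358 in the deleted libraries. The groups did not overlap, but the log2 fold change of -0.35 (SE, standard error, 0.07) did not reach the fold limit. These are counts over a whole transcript, in which removal of an exon cannot be seen, so they do not check the deletion. The paper states that its authors checked the deletion by immunoblot and by RNA sequencing. Throughout, normalized counts are scaled to 17351835 counts a library, the mean of the effective sizes.

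Genes were called when edgeR's quasi-likelihood test gave a Benjamini-Hochberg adjusted p under 0.01 with a fold change of at least 1.5. Of 12971 genes tested, 3456 were called, which is 26.6%. In TβRII-/- PT cells 2011 genes rose (15.5% of those tested) and 1445 fell (11.1%), and 58.19% of the calls were rises. With an adjusted p under 0.05 and no fold limit 8387 genes, or 64.7%, would pass. The 3 shares at the stricter rule are the background for every count of group members below. The median log2 fold change of all genes tested was 0.0085. A rise of at least 4-fold was fitted for 731 genes and a fall of this size for 306; for at least 16-fold the numbers were 268 and 90, but for genes near 0 in 1 group the fitted size is no bound. Rises outnumbered falls among weakly expressed genes and falls outnumbered rises among the most abundant. Below 50 normalized counts 580 genes rose and 245 fell, whereas above 5000 only 39 rose and 119 fell. The 2 groups of 3 libraries did not overlap for 8470 genes, or 65.3%, so lack of overlap alone was common in this comparison. Gene groups are described below by their tested members. The filter on low counts keeps a gene that is high in only 1 group, and it left 26 of 29 listed junction genes, 25 of 44 collagens, 11 of 50 keratins and 8 of 23 claudins.

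**Figure D1:**
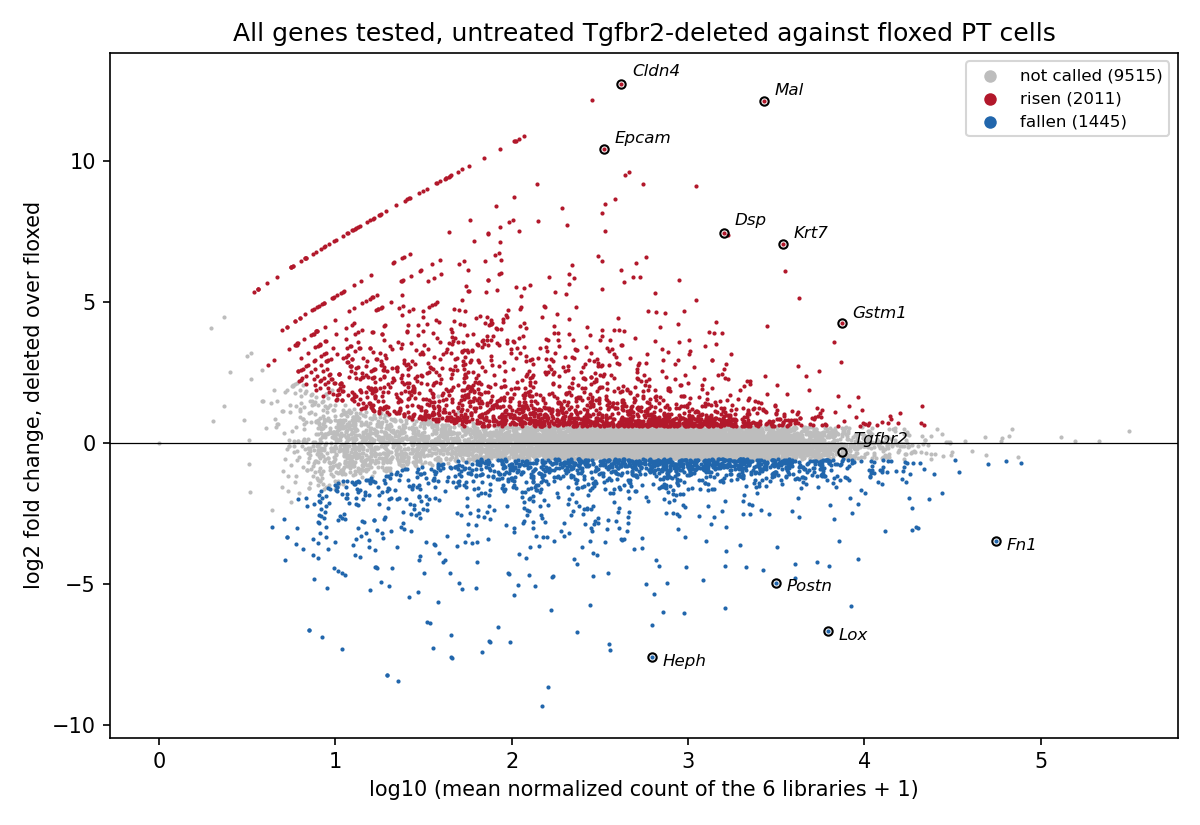
Log2 fold change of TβRII-/- over TβRIIflox/flox PT cells (vertical axis) against the log10 mean normalized count of the 6 untreated libraries (horizontal axis), 1 point a gene, with 2011 risen genes in red, 1445 fallen genes in blue and the rest in grey. Labelled points include the matrix and TGF-β response genes Fn1 (-3.49), Postn (-4.96) and Lox (-6.68) below 0 and Dsp (7.42) and Krt7 (7.04) above it; the slanted rows of points are genes with few or no counts in 1 group, whose fitted fold change has no meaning as a size.

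The genes that TGF-β is known to induce were the first group examined. The part of the receptor in their changes was not tested. Of 28 measured members of this list 17 fell, 3 rose and 8 were not called, with a median log2 fold change of -0.98. Ccn2, the connective tissue growth factor, counted 32883, 32157 and 27615 against 6515, 6354 and 5873 (log2 fold change -2.31). The lowest floxed library was far above the highest deleted one. Pmepa1, an inhibitor of the pathway that it induces itself, decreased from 3639 ± 503 to 295 ± 24.1 (SD, n = 3), and Nox4, an NADPH oxidase that makes hydrogen peroxide, from 557 ± 29.5 to 21.2 ± 5.95. Among the feedback regulators Smad7 fell by 1.27 and Skil by 1.66 on the log2 scale.

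The 3 list members that rose were Acta2, Hmga2 and Tgfbi. Acta2 encodes smooth muscle actin, commonly used as a myofibroblast marker. It counted 456, 457 and 495 in the floxed libraries and 2530, 2616 and 2341 in the deleted libraries (log2 fold change 2.41, SE 0.07, adjusted p = 6.38e-24 by edgeR). Among the contractile genes Myl9 rose with it (log2 fold change 1.15), whereas Tpm1, a tropomyosin, fell (-1.01) and Tagln, at -0.36, was not called. Tgfbi, which is named for its induction by TGF-β, was low in both groups and reached 41.4 ± 6.42 in TβRII-/- PT cells from 3.91 ± 2.99. Hmga2, a chromatin protein, increased from 941 ± 61.0 to 1716 ± 22.9.

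Of the receptors and Smads, 20 were measured, 5 rose and 5 fell. Tgfbr1, the type I receptor, was not called (log2 fold change -0.30), and neither were Smad2 (-0.10), Smad3 (0.24) and Smad4 (-0.27). Tgfbr3, the coreceptor betaglycan, rose from 906 ± 98.0 to 1794 ± 110 normalized counts. Receptors of the BMP branch, Acvr1 (-1.01) and Bmpr2 (-0.73), fell, as did its transducer Smad1 (-1.05). The latent TGF-β binding proteins, which store the ligands in the matrix, fell in 4 members: Ltbp1 (-3.33), Ltbp2 (-3.52), Ltbp3 (-0.64) and Ltbp4 (-1.60). The ligand genes had log2 fold changes of -0.31 for Tgfb1 and -0.52 for Tgfb2, neither called, and -0.64 for Tgfb3, which fell. Without replicate 1 of the floxed cells Ltbp3 (-0.56) and Tgfb3 (-0.55) no longer passed the fold limit, nor did Tgfb3 without replicate 3 of the deleted cells (-0.54), and 5 in place of 8 of the 12 members of the ligand and binding protein list were called. In the BMP list 7 of 19 members rose and 6 fell. The BMP antagonist Nog decreased from 261 ± 41.7 to 7.63 ± 1.84 and the activin antagonist Fst by 1.79 on the log2 scale. Id1, Id2 and Id4, inhibitors of differentiation that BMP signals are known to induce, rose, with Id4 from 10.1 ± 3.22 to 393 ± 22.3. The call of Id1 was lost without replicate 1 of either group (0.58 without the floxed, 0.57 without the deleted one).

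Most extracellular matrix genes on the lists fell. Of 25 collagen genes measured 16 fell and 5 rose (median log2 fold change -1.56), and of 23 matrix glycoproteins and proteoglycans 14 fell and 4 rose (median -1.10). Fibronectin, Fn1 (chromosome 1 of GRCm38.p6, 71585473 to 71653280), gave the largest loss of counts of any gene. It had 122877, 94822 and 91292 normalized counts in the floxed libraries and 9684, 8793 and 9080 in the deleted libraries. Replicate 1 of the floxed cells was the highest of the 6, yet all 3 floxed libraries exceeded the deleted ones by a wide margin (log2 fold change -3.49, SE 0.10, adjusted p = 1.83e-24 by edgeR). The chains of collagen IV, the network of basement membranes, moved as a group. Col4a1 decreased from 34727 ± 4414 to 4349 ± 288, Col4a3 from 3081 ± 364 to 151 ± 26.7 and Col4a4 from 10234 ± 1265 to 548 ± 58.8, and Col4a2 (-3.12), Col4a5 (-0.62) and Col4a6 (-0.91) also fell, though Col4a5 missed the fold limit without replicate 1 of the floxed (-0.54) or replicate 2 of the deleted cells (-0.58). The fibrillar chains Col5a1 (-3.37), Col5a2 (-3.10) and Col11a1 (-4.86) fell too. Col1a1, the chain most used to report fibrosis, was scarce in both groups and fell from 42 to 14 mean normalized counts.

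The matrix proteins that fell included fibulin 2, Fbln2 (from 7716 ± 1036 to 389 ± 26.1), versican, Vcan (3056 ± 436 to 215 ± 29.1), periostin, Postn (6101 ± 688 to 197 ± 28.6) and tenascin C, Tnc (log2 fold change -1.95). Of 15 crosslinking enzymes 9 fell and 2 rose. Lox, the lysyl oxidase that crosslinks collagen and elastin, counted 13195, 12400 and 11193 against 137, 124 and 97.6, a log2 fold change of -6.68 (SE 0.10, adjusted p = 3.28e-32 by edgeR). Its relative Loxl1 fell by 3.69 on this scale, while Loxl2 rose from 5.38 ± 2.82 to 320 ± 31.0. Members of 1 enzyme family thus moved in opposite directions. Among 21 matrix proteases and inhibitors 9 fell and 6 rose. Mmp2, a gelatinase that degrades collagen IV, fell from 17500 ± 2069 to 1005 ± 59.7, whereas the plasminogen activators Plau (1.53) and Plat (1.10) rose.

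Laminins and integrins, the proteins that hold cells to the basement membrane, were examined as lists of their own. Of 8 laminin chains 5 rose and none fell. Lama3 and Lamb3 encode laminin chains that anchor epithelia to the membrane. Their mean counts increased from 131 to 922 and from 102 to 707. Itgb4, the laminin-binding β4 integrin of hemidesmosomes, counted 159, 141 and 123 in the floxed libraries and 2924, 2709 and 2632 in the deleted libraries (log2 fold change 4.29). Its partner Itga6 rose by 2.04 and the anchoring fibril collagen Col7a1 by 1.28 on the log2 scale. Itga1 (-1.64), Itga5 (-1.64) and Itgb1 (-1.05), which form collagen and fibronectin receptors, fell. In the integrin list as a whole 7 of 17 rose and 5 fell.

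**Figure D2:**
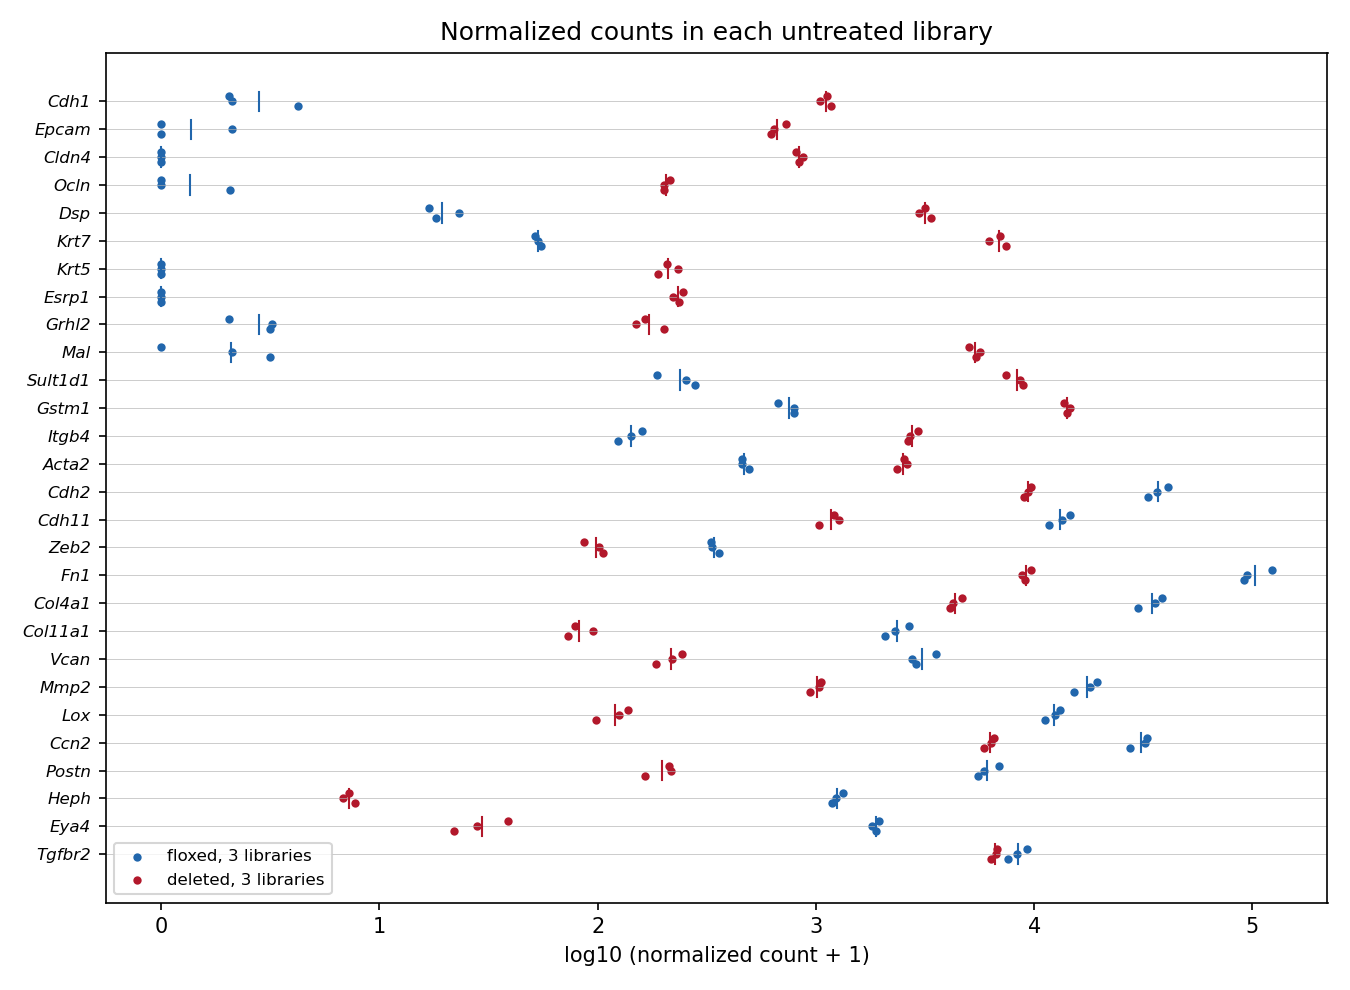
Normalized counts on a log10 axis of 28 genes in each of the 3 floxed (blue) and 3 deleted (red) untreated libraries, with a vertical line at the mean of each group. For each gene but Tgfbr2 the groups lie far apart compared with the spread of their replicates. Cdh1, Epcam, Cldn4, Ocln and Krt5 lie at or near 0 in the floxed libraries, whereas Dsp and Krt7 lie clearly above 0 there.

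Epithelial adhesion genes rose in TβRII-/- PT cells. Of 26 junction genes measured 18 rose, none fell and 8 were not called (median log2 fold change 2.19). Cdh1, which encodes E-cadherin of adherens junctions, had 1.05, 1.11 and 3.23 normalized counts in the floxed libraries, no more than 3 reads in any of them, and 1118, 1046 and 1171 in the deleted ones. It was at least 343-fold higher in TβRII-/- PT cells, a bound computed against 3 reads in each floxed library. The same held for Epcam, the epithelial cell adhesion molecule, with 0, 1.11 and 0 against 729, 641 and 621 (at least 205-fold higher), and for occludin, Ocln, with 0, 0 and 1.08 against 212, 200.4 and 201 (at least 63.1-fold higher). These 3 genes were thus near 0 in every floxed library and present in every deleted library. Cldn4, a claudin that tightens the paracellular barrier, had no read in the floxed libraries and 807, 869 and 833 normalized counts in the deleted ones (at least 258-fold higher). Of 8 claudins 4 rose and none fell. Cldn2, the cation channel of leaky proximal tight junctions, rose from 119 to 365 mean counts.

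Desmosomal and cornified-envelope genes were part of this rise. Desmoplakin, Dsp, which links desmosomes to keratin filaments, counted 15.8, 22.3 and 17.2 against 3175, 2965 and 3349 (log2 fold change 7.42, SE 0.11, adjusted p = 3.28e-32 by edgeR). Periplakin, Ppl, rose by 3.57, envoplakin, Evpl, by 3.30, and desmoglein 2, Dsg2, by 3.31 on the log2 scale. Jup (-0.06), which encodes plakoglobin of desmosomes and adherens junctions, and Tjp1 (0.25), which encodes ZO-1 of tight junctions, were not called. Keratins, the intermediate filaments of epithelia, rose in 9 of 11 members with none falling. Krt7, a keratin of simple ducts, counted 50.5, 52.3 and 53.8 in the floxed libraries and 7006, 6228 and 7419 in the deleted libraries. Krt5, best known from basal cells of stratified epithelia, was not counted in the floxed libraries and had 207, 233 and 188 in the deleted ones (at least 64.6-fold higher). Krt8 and Krt18, the usual pair of tubular epithelium, were present in both groups and rose by 1.15 and 2.38 on the log2 scale.

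Other cadherins moved in both directions. N-cadherin, Cdh2, which proximal tubule cells normally carry, decreased from 36913 ± 3802 to 9339 ± 329, and cadherin 6, Cdh6, also a proximal cadherin, by 2.17 on the log2 scale. Cdh11, a cadherin of mesenchyme, fell from 13191 ± 1435 to 1170 ± 127. The kidney-specific Cdh16 rose from 10306 to 21439 mean normalized counts. Even after deletion Cdh2 was counted more often than Cdh1, but counts are not corrected for transcript length and do not rank genes by level.

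Regulators of these programmes were examined as 2 lists. Of 8 mesenchymal transcription factors 5 fell, namely Zeb1 (-0.89), Zeb2 (-1.80), Snai2 (from 97.8 to 36.8 mean counts), Runx2 (-1.67) and Tcf4 (-1.07), and 2 rose, Twist1 (0.87) and Twist2 (1.14). Zeb2 had 328, 332 and 357 normalized counts in the floxed libraries and 85.8, 100.7 and 104 in the deleted libraries. The repressors Zeb1 and Zeb2 were therefore lower but still expressed. Of 13 epithelial transcription and splicing factors 7 rose and none fell. Esrp1, a splicing factor that sets epithelial isoforms, went from no reads to 244, 221 and 235 (at least 72.0-fold higher). Grhl2, a grainyhead factor that activates Cdh1 and claudin genes, went from 1.05, 2.23 and 2.15 to 163, 149 and 200.1 (at least 52.7-fold higher). Esrp2 (0.04), the other member of the Esrp pair, and the nephron regulators Pax2 (-0.12) and Pax8 (0.26) were not called.

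Promoters were searched for the E-box because Zeb and Snail proteins bind it. Shown here are the 250 bases before the start of 4 risen genes whose promoters hold it, taken from RefSeq on GRCm38.p6 and written 5′ to 3′ on the gene's strand, with capitals marking CAGGTG or its reverse complement CACCTG. Epcam is on the plus strand of chromosome 17 (chr17:87635729-87635978), Cldn4 on the minus strand of chromosome 5 (chr5:134946935-134947184), Krt7 on the plus strand of chromosome 15 (chr15:101412153-101412402), and Lsr, which encodes a receptor of tricellular junctions and rose by 2.27 on the log2 scale, on the minus strand of chromosome 7 (chr7:30973470-30973719).
Epcam: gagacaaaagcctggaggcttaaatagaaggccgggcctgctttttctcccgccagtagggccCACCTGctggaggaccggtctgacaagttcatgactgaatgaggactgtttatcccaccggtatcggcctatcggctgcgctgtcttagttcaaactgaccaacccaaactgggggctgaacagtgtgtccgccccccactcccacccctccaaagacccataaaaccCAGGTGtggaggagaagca
Cldn4: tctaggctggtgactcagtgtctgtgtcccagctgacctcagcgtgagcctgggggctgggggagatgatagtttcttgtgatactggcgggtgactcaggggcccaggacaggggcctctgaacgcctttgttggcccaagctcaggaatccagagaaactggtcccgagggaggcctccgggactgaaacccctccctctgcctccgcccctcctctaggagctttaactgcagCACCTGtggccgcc
Krt7: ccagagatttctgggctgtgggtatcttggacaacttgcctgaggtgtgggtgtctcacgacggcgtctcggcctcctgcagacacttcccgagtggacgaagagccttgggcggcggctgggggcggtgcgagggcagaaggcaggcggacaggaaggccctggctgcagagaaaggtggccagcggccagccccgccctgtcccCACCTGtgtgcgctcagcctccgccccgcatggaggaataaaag
Lsr: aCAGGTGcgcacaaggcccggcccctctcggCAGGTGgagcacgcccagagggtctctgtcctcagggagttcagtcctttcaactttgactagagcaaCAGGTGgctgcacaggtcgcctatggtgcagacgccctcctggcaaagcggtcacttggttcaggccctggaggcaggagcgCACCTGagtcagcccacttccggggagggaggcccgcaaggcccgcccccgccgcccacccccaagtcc
The first base of the motif lies 187 and 19 bases before the start in Epcam, 14 in Cldn4, 44 in Krt7, and 249, 219, 151 and 69 in Lsr.

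The motif CAGGTG was counted on both strands in windows from 250 bases before to 50 after the start, which were available for 9720 of the 12971 genes tested. It occurred in 17.4% of all these promoters, in 25.3% of those of risen genes (373 of 1474), in 15% of those of fallen genes (150 of 1001) and in 16.1% of those of genes not called. Of the 18 junction genes that rose only 9 had a promoter available, and Cdh1 was not among these 9. The motif was held by 8 of the 9, against 1 of the 4 available from the 8 not called. Of the 9 risen keratins 6 had a promoter, and 5 of these held it, as did the 1 keratin with a promoter that was not called. Among risen claudins 2 of 4 held it, and among those not called 0 of 3. Risen genes had fewer CpG dinucleotides per promoter, a median of 17.5 against 21 over all genes, and the part of base composition in the difference was not tested. The AP-1 motif TGANTCA was found in 7.94% of risen, 5.10% of fallen and 4.85% of all promoters. For the antioxidant response element TGACNNNGC (14.9% risen, 13.8% fallen, 14.8% all) and the TEAD motif GGAATG (13.3%, 12.9% and 12%) the shares lay close together, and among risen Nrf2 targets 5 of 15 promoters held the former. The palindromic Smad motif GTCTAGAC was rare, in 26 promoters of all and in none of fallen genes. A match of letters is a description of the sequence and shows no binding.

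Gains from near 0 were not limited to junctions. With at most 3 reads in every floxed library and a mean of at least 50 normalized counts in TβRII-/- PT cells there were 72 genes, and 15 genes showed the reverse. Mal, a raft protein that sorts cargo to the apical membrane, had the highest level of the first kind, with 0, 1.11 and 2.15 against 5040, 5642 and 5426 (at least 1657-fold higher). Its relative Mal2 (at least 175-fold), the apical stem and progenitor marker Prom1 (at least 269-fold), the secreted protease inhibitor Wfdc2 (at least 67.5-fold) and the glycosyltransferase B3gnt3 (at least 286-fold) belonged to the same kind. On the reverse side were Ildr2, a relative of Lsr, with 309, 297 and 282 against 1.05, 0 and 0 (at least 99.6-fold lower), and the kinase gene Lrrk2 (at least 30.1-fold lower). Just above this limit, Heph, the copper oxidase that helps iron leave cells, counted 1332, 1229 and 1178 in the floxed libraries and 6.27, 5.81 and 6.70 in the deleted libraries. In the Eya family of developmental coactivators Eya4 fell from 1879 ± 76.6 to 28.6 ± 8.39 while Eya2 rose from 4.37 ± 3.01 to 204 ± 14.5.

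**Figure D3:**
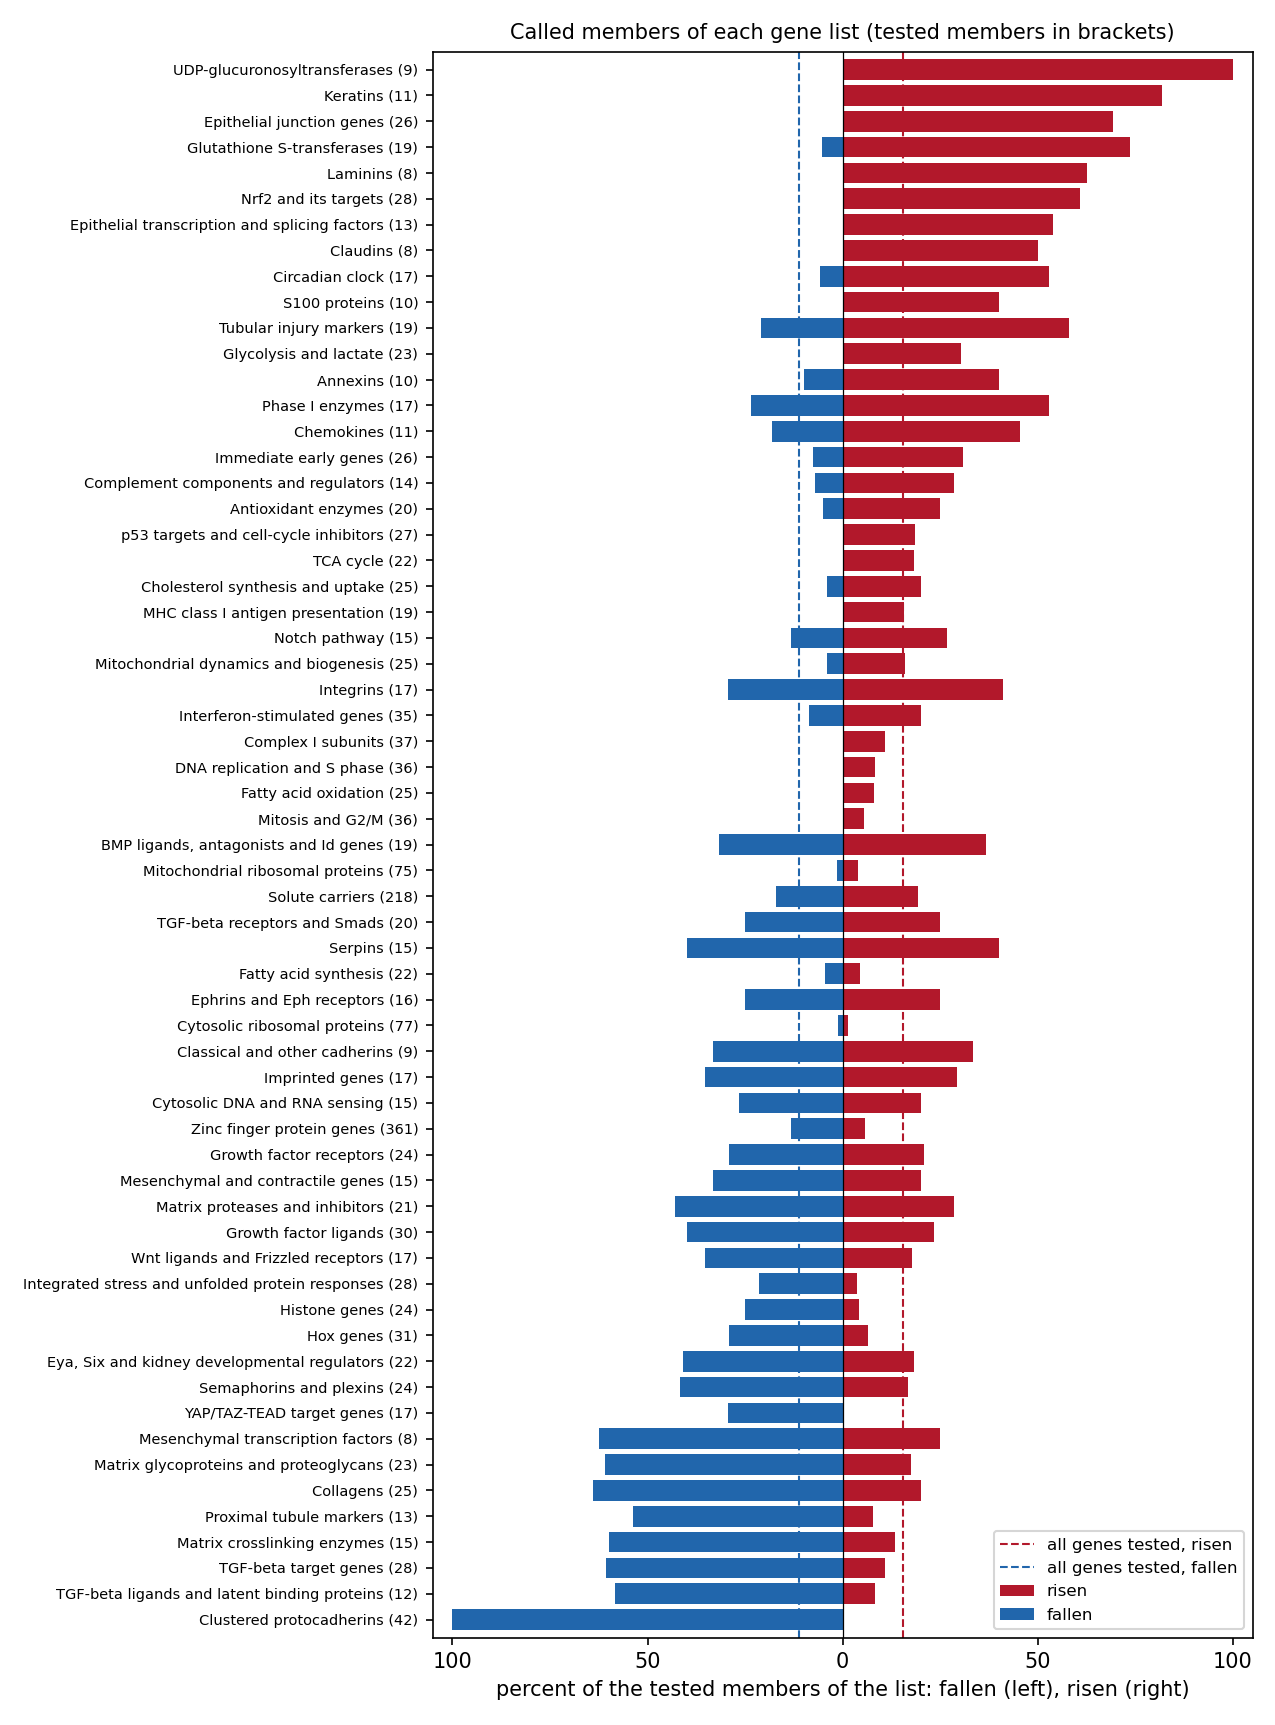
Percent of the tested members of each gene list (number tested in brackets) that rose, to the right in red, or fell, to the left in blue, for lists with at least 8 tested members; dashed lines give the share over all genes tested, 15.5% risen and 11.1% fallen. Keratins, junction genes and conjugating enzymes lie far to the right, and clustered protocadherins, TGF-β target genes and collagens far to the left.

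Enzymes that conjugate foreign compounds rose in number. Of 19 glutathione S-transferases 14 rose and 1, Gsto1, fell (median log2 fold change 2.07). Gstm1 had 671, 793 and 795 normalized counts in the floxed libraries and 13702, 14605 and 14086 in the deleted libraries (log2 fold change 4.23, SE 0.08, adjusted p = 8.94e-29 by edgeR), among the largest gains in counts of any gene. Members of the Gstm and Gsta families are close copies, and reads shared between them make single members uncertain. All 9 UDP-glucuronosyltransferases tested rose, but they are Ugt1a forms of 1 locus with shared exons, so they count as about 1 measurement. Sult1d1, a sulfotransferase of amines, rose from 238 ± 48.0 to 8301 ± 764. These genes include known Nrf2 targets, a list of which 17 of 28 members rose and none fell. The Nrf2 list shares members such as Gstm1 and Gsta4 with the glutathione S-transferases, so the 2 counts are not separate.

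Of 58 listed clustered protocadherins, adhesion proteins expressed in combinations that mark single neurons, 42 were tested and all 42 fell. Part of this count is set by the filter on low counts. Members with at most 3 reads in every deleted library, given below, could pass it only through other groups. A rise could hardly be called for them. With at least 10 counts in every untreated library 25 were called. Pcdha9 and Pcdhb4 missed the p limit without replicate 2 of the floxed cells and without replicate 2 or 3 of the deleted cells. Pcdhb4 also missed it without replicate 1 of the floxed cells. The 2 Pcdha genes had at most 3 reads in every deleted library, with a bound of -1.42 on the log2 scale. The 18 Pcdhb genes have 1 exon each, and in 12 of them no deleted library had more than 3 reads. With these set to their bounds against 3 reads, the log2 fold changes of the Pcdhb genes ran from -6.02 to -1.04 with a median of -4.11. The 22 Pcdhg forms share their last exons and gave nearly equal values, from -1.18 to -1.07, so they count as about 1 measurement. Semaphorins and plexins, guidance cues, fell in 10 of 24 members and rose in 4, with Sema3a down from 11608 ± 1009 to 1792 ± 108. Hox genes, which hold positional identity, fell in 9 of 31 and rose in 2. Imprinted genes were divided, with 6 of 17 fallen and 5 risen. Peg10 decreased from 5113 ± 323 to 223 ± 23.4 and its neighbour Sgce by 2.52 on the log2 scale, Grb10 by 2.62 and Igf2 by 4.64, while the growth inhibitors Cdkn1c (1.09) and Plagl1 (2.49) rose.

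The label of proximal tubule cells was checked against markers. Of 12 defining markers 5, among them Hnf4a, Slc34a1, Slc22a6 and Slc22a8, had at most 3 reads in every untreated library, in both genotypes, so the label is met in part. The nephron markers Pax2, Pax8 and Cdh16 and the proximal endocytic receptor Lrp2 (megalin) were present. Of a wider list of 30 proximal genes 13 were tested, of which 7 fell and 1 rose. Lrp2 had 20339, 15938 and 15562 normalized counts in the floxed libraries and 11414, 10554 and 11080 in the deleted libraries (log2 fold change -0.65), and the water channel Aqp1 (-0.68), the brush-border peptidase Mme (-0.91) and the endocytic receptor Cubn (-1.24) were also lower. The amino acid transporter Slc6a19 was the one that rose (28.2 ± 6.20 to 174 ± 7.94). Without replicate 1 of the floxed cells Lrp2, at -0.52, no longer passed the fold limit. Of 20 listed distal nephron genes 5 were tested and 4 of them rose, among them the sodium channel subunit Scnn1a (47.6 ± 15.3 to 272 ± 11.8) and the magnesium channel Trpm6 (log2 fold change 2.40), and Hsd11b2, which protects the mineralocorticoid receptor from glucocorticoids, fell by 1.97. The call of Scnn1g, which also rose, was lost without replicate 1 of the floxed cells and without replicate 1 or 3 of the deleted cells. Of the principal cell markers of the collecting duct Aqp2, Aqp3 and Avpr2 had at most 3 reads in each library, and the 6 together summed to 624 to 910 in the floxed and 209 to 240 in the deleted libraries, mostly from Hsd11b2. The direction of the distal genes was thus not uniform. Defining markers of the thick ascending limb (Umod, Slc12a1, Cldn16), podocytes (Nphs1), endothelium (Pecam1), leukocytes (Cd3e, Adgre1) and fibroblasts (Pdgfra, Lum) had at most 3 reads in each library. The summed endothelial markers were 127 to 138 in the floxed and 465 to 586 in the deleted libraries, mostly from Kdr. The summed podocyte markers were 266 to 300 and 714 to 742, from Wt1 and Podxl, the leukocyte markers 139 to 147 and 231 to 253, and the fibroblast markers 51.6 to 66.3 and 16.5 to 29.3. Their part in the differences was not tested. None of 113 Y-linked genes had a read, although the cells are described as coming from male mice.

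Injury markers, genes that damaged tubules express, rose in 11 of 19 members and fell in 4. Lcn2, the secreted marker NGAL, had 5.26, 12.2 and 5.38 in the floxed libraries and 115, 94.9 and 122 in the deleted ones, and rose with clusterin, Clu (1.02 on the log2 scale). Havcr1, which encodes the injury marker Kim-1, was not called (0.03), and the adhesion molecule Vcam1, from 66.2 ± 0.983 to 24.9 ± 4.91, and chemokine Ccl2 (-1.43) fell. Of the 11 that rose 5 are keratins already counted above. Genes of the integrated stress and unfolded protein responses fell in 6 of 28 and rose in 1, with chaperones of the endoplasmic reticulum such as Hyou1 (-1.09), Hsp90b1 (-0.72) and the regulator Xbp1 (-1.02) among the 6. Clock genes rose in 9 of 17, with log2 fold changes of 1.60 for Rora, 1.10 for Nr1d1 and 1.09 for Dbp, and 1, Bhlhe40, fell.

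Several housekeeping groups lay below the background. Cytosolic ribosomal protein genes were called in 2 of 77 cases, mitochondrial ribosomal proteins in 4 of 75, mitotic genes in 2 of 36, DNA replication genes in 3 of 36 and fatty acid oxidation genes in 2 of 25, against 26.6% of all genes. The share over all genes varied with level. It was 43.3% below 50 normalized counts, 41.5% from 50 to 200, 20.6% from 200 to 1000, 18.3% from 1000 to 5000 and 26.7% above 5000. The groups were not matched for level. Without replicate 3 of the floxed cells 5 replication genes were called, without replicate 3 of the deleted cells 1 oxidation gene, and without replicate 1 of the floxed or replicate 2 or 3 of the deleted cells 1 ribosomal protein gene. The proliferation marker Mki67 was not called (log2 fold change -0.20). Counts on genes of the mitochondrial genome made up 4.80 ± 0.306% of gene counts in the floxed libraries and 5.99 ± 0.517% in the deleted libraries (SD, n = 3). With counts summed over all transcripts of a gene, which enlarges the total, the shares were 1.45 ± 0.101% and 1.82 ± 0.166%, and the difference 0.373 instead of 1.20 percentage points. All deleted libraries had higher shares than all floxed ones, and the two-sided exact permutation p of 0.1 is the smallest that 3 against 3 libraries can give. In normalized counts the groups overlapped. The summed genes of the mitochondrial genome ran from 821510 to 933318 in the floxed and from 912326 to 1079516 in the deleted libraries. Of 7 such genes tested 1 rose and none fell, and for 2 the groups did not overlap, against 65.3% of all genes.

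Changes were not spread evenly over the genome. Genes on chromosomes 2 and 15 were shifted upward as a whole, with median log2 fold changes of 0.30 and 0.36, and those on chromosome 18 downward (-0.32). Chromosome 5 had a median of 0.29, but it held stretches of opposite direction. Each chromosome was divided into windows of 25 neighbouring tested genes, 483 in all, of which 92 had a median above 0.25 and 53 a median below -0.25. All 38 windows of chromosome 2 and all 19 of chromosome 15 were above 0, and all 14 of chromosome 18 below it. Chromosomes 5 and 16 each changed sign once. On chromosome 16 the first 10 windows were above 0 and the last 5, from 43861407 on, below 0. On chromosome 8 every window from 105329160 on, a stretch that holds Cdh1, was below 0 (medians from -0.53 to -0.32). On chromosome 5 the first 25 windows, from 3341004 to 136141800 on GRCm38.p6, were all above 0. The last 6 of chromosome 5, from 136147456 on, were all below 0. In the first stretch 183 of 625 genes rose and 24 fell (median log2 fold change 0.38), and in the second 17 of 154 rose and 88 fell (median -0.70, a fold of 0.615). Relative to the floxed mean, the median gene of the second stretch stood at -0.71, -0.69 and -0.71 in the 3 deleted libraries and at 0.02, 0.01 and -0.01 in the 3 floxed ones. The shift was thus nearly equal in each deleted library, and in the H2O2-treated libraries of the same lines it was -0.60.

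**Figure D4:**
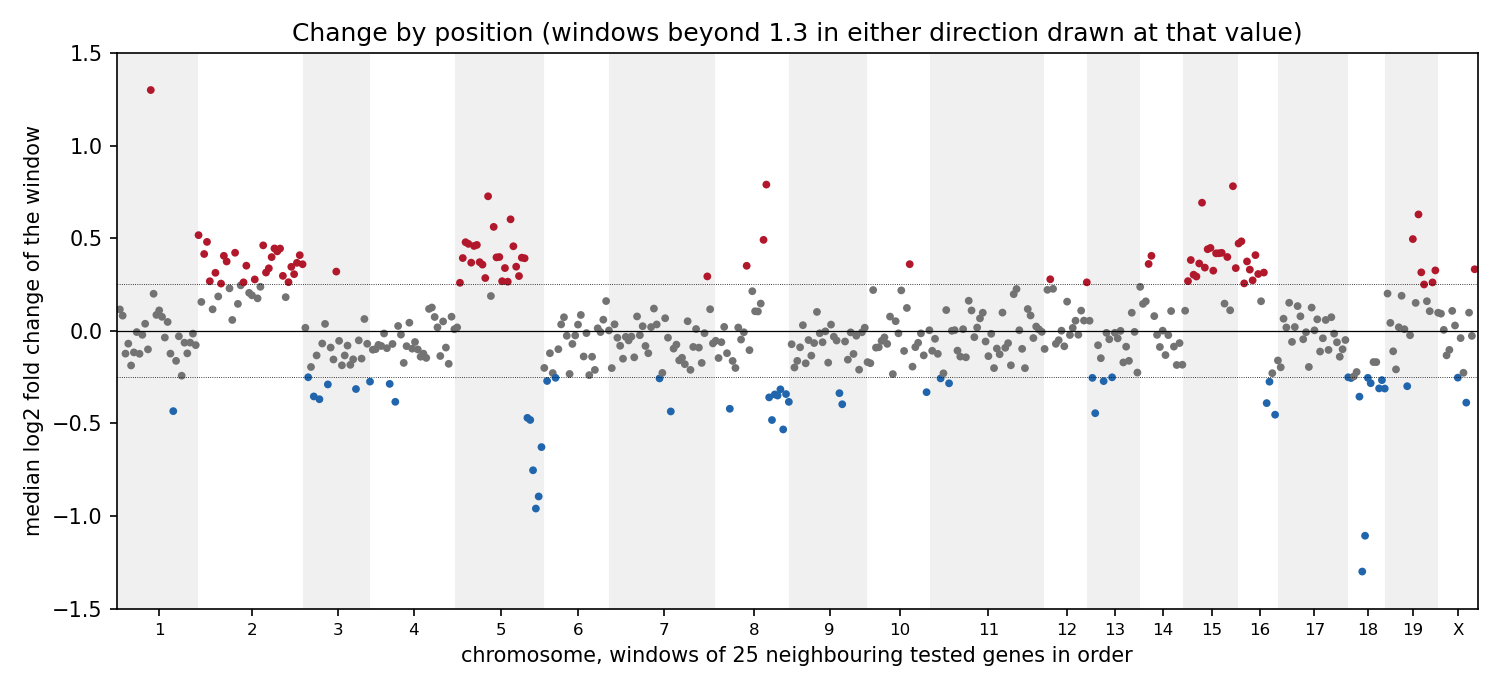
Median log2 fold change (vertical axis) of 483 windows of 25 neighbouring tested genes in chromosomal order (horizontal axis, chromosomes 1 to 19 and X), red above 0.25 and blue below -0.25; windows beyond 1.3 in either direction are drawn at that value. Chromosomes 2 and 15 lie above 0 throughout, chromosome 18 lies below 0, and chromosome 5 falls from positive to negative values near its end.

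Genes chosen by the naming rule were set against the 12 tested genes on each side of them. Cldn4 lies in the first stretch of chromosome 5 with a neighbour median of 0.44. For Krt7 and Krt5 the neighbours, which include other keratins, had a median of 0.70, for Cdh1 -0.56, for Fn1 -0.02 and for Lox -0.10. The changes of Fn1 and Lox were thus far larger than those around them, and that of Cdh1 went the opposite way. Others were close to their surroundings: Cdh16, at 1.06 with a neighbour median of 0.72, and Hsp90b1, at -0.72 with -0.19, differed from their neighbours by less than the fold limit. Of 269 genes of the rule that were called and have coordinates, 29 were in this position. When the fold limit was set on the difference from the neighbours' median in place of the change itself, 2963 of 12268 genes with coordinates were called, against 3329 by their own change. Of the 3329 calls 2646, or 79.5%, passed in this way too. The windows with extreme medians were gene families. The highest, 1.60 on chromosome 1, holds the Ugt1a forms, and the lowest, -3.36 on chromosome 18, the protocadherins.

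The same lines were compared after H2O2 with libraries that are not part of the untreated contrast. There 3814 of the 12971 genes were called (29.4%), and 2874 genes were called in both, which is 83.16% of the untreated and 75.35% of the H2O2 calls. All but 1 of the 2874 had the same direction. The exception, Mest, an imprinted gene, was named after its values were seen; its log2 fold change was 0.74 untreated and -0.89 with H2O2. These libraries come from the same 2 lines and are no independent deletion. Both contrasts share 1 filter, 1 choice of transcripts and 1 model of the spread, so the 2 sets of calls were not made separately. Of the genes named above, Id1, Plat, Col7a1 and Scnn1a were called without treatment and not with H2O2, and a difference between the conditions was not tested here.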

How the data were processed

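RNA of 12 libraries, 3 in each of 4 groups of genotype and treatment, had been sequenced from poly(A) libraries (Illumina TruSeq), and the groups follow the genotype and treatment labels. Adapter trimming (fastp), alignment (STAR, GRCm38.p6, GENCODE M23) and counting (featureCounts) were done by the authors. The deposited values are raw counts per transcript, without normalization. Gene counts had been assumed in the design. A read shared by several transcripts was counted for each, and the transcript sum was 3.31 to 3.37 times the gene total, so each gene was represented by the transcript that collected most reads in all 12 libraries together. Of 106332 transcripts 104820 matched GENCODE M39, giving 25514 genes; unmatched transcripts held 1.22 to 1.26% of the untreated counts.

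One model over 12 libraries was fitted in edgeR 4.0.16 (R 4.3.3; TMM scaling, filterByExpr, quasi-likelihood test), with p values adjusted by Benjamini-Hochberg over 12971 genes. In data simulated for this contrast over 12752 genes, 179 of 200 genes changed 2-fold were called, with 1 unchanged gene. The 200 were balanced in direction and placed at random. In the data 26.6% of genes were called and whole chromosomes were shifted, and false calls under such conditions were not tested. Alternatives were DESeq2 1.42.0, other scalings and filters, summed transcripts, a replicate block and leaving out each library. Same-numbered libraries did not deviate together (correlations of -0.027, 0.029 and 0.058). Bounds took 3 counts as the floor in each library, which covers counting error only.

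The comparison and gene lists were chosen with earlier results of these data known. Named genes are Tgfbr2; the 15 protein-coding genes that rose most and the 15 that fell most (mean of at least 50 normalized counts, no overlap); up to 8 genes in each direction with at most 3 counts in every library of 1 group; up to 4 called members of each list and its highest member; and the 5 largest count differences in each direction. Other list members, such as Smad2, Pmepa1, Tgfbi, Lsr and Jup, were named for their role after their values were seen. Coordinates and promoters are from RefSeq (GRCm38.p6). Values are for the dominant transcript and are not corrected for length.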

Additional observations from a re-analysis of the deposited data

How the results depend on the processing

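With both limits relaxed, to an adjusted p under 0.05 and no fold limit, edgeR called 8387 genes, 4318 risen and 4069 fallen. Requiring at least 10 counts in every untreated library gave 2662 calls, which loses genes near 0 in 1 group by construction, and no filter gave 3656. DESeq2 called 3454 genes, a fit of the 6 untreated libraries alone 3314, summed transcripts 3473, and an unadjusted p 3507. Leaving out 1 library at a time gave 3357 to 3518 calls, 1957 to 2006 risen and 1386 to 1561 fallen. Replicate numbers did not pair the libraries, not every sample correlated best with its own number, and a replicate block gave 3445 calls. Chosen after seeing the data, calls relative to the neighbouring genes numbered 2963. Of 270 called named genes 255 were called in every alternative, 15 were lost in at least 1 and none reversed. Of 67 gene lists the count moved by over 1.5 times in 14, among them clustered protocadherins (25 called), glutathione S-transferases (8), epithelial factors (3), claudins (2) and glucuronosyltransferases (0) with at least 10 counts in every library, and the TGF-β ligand and latent binding protein list (5) without replicate 1 of the floxed cells. For ribosomal protein genes the count fell to 1 without replicate 1 of the floxed or replicates 2 or 3 of the deleted cells. The difference in the mitochondrial share lay between 0.995 and 1.49 percentage points when single libraries were left out and was 0.373 with summed transcripts. With 3 libraries of 1 line on each side, differences between lines cannot be separated from the deletion at any depth.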
